A study of Homo sapiens and Mus musculus with 213 samples.

Results

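The interferon response and antigen presentation genes described here are 49 human genes, chosen by name. They cover the sensors, transcription factors, antiviral effectors and peptide presentation genes of innate immunity. Their RNA was measured by RNA-seq in 9 libraries of HEK293T cells, unedited or edited at the MYC promoter, among the 213 samples of the series. All 49 were found among the 58336 genes of the expression table through their Ensembl identifiers in GENCODE. The 38 members with a mean of at least 10 normalized counts over the 9 libraries were tested, among 20884 genes tested in all, and the other 11 members were below that minimum.

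Cells detect foreign or misplaced nucleic acids with RNA sensors such as RIG-I and MDA5 and with the DNA sensor cGAS, which acts through STING. These sensors lead to phosphorylation of IRF3 and IRF7, secretion of type I interferon, and signalling through the interferon receptor, JAK1, TYK2 and a complex that holds STAT2 and IRF9. That complex binds interferon-stimulated response elements and raises a set of antiviral genes together with the machinery that loads peptides on MHC class I. HEK293T, an immortalized line from human embryonic kidney, is a common host for work on this pathway and is known for low basal cGAS and STING.

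The question of the experiment was what changes when the G-quadruplex (G4), a 4-stranded DNA fold upstream of the MYC P1 promoter, is lost or exchanged. MYC WT is HEK293T with its natural G4 motif, MYC MUT carries point mutations in the G-runs of that motif that prevent folding, and SWP carries a different G4-forming motif in its place. The edited lines were made by CRISPR and grown as homozygous clones from sorted single cells, all in the same medium and with no interferon or other treatment named. Each line has 3 libraries, labelled as biological replicates 1 to 3, and nothing says whether they came from separate clones, so the spread is that between these libraries.

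The libraries held between 65024354 and 98497026 reads on genes. The column headers tag MYC WT, and neither edited line, with a sequencing pool, so pool and line cannot be told apart in the comparisons with MYC WT. A comparison of any 2 lines can also hold differences between clones that are unrelated to the edit, and these were not tested. MYC itself had normalized counts of 20020.3, 28396 and 21580.1 in MYC WT, 10693, 11176 and 12399.8 in MYC MUT and 14480.1, 24743 and 25245 in SWP. That is a log2 fold change (± standard error) of -1.02 ± 0.19, adjusted p = 0.00182 in MYC MUT and -0.15 ± 0.19, adjusted p = 0.712 in SWP. All 9 HEK293T and housekeeping markers examined were expressed, and 4 of them changed in MYC MUT and 2 in SWP against MYC WT. Of all tested genes, 21.4% changed in MYC MUT and 5.13% in SWP. The leukocyte marker PTPRC and the T cell markers CD3D and CD3E had at most 3 reads in every library, as had 7 of 14 immune cell markers in all. The summed level of the 14 was 211.2 to 235.7 normalized counts in MYC WT, 256.2 to 311.1 in MYC MUT and 189 to 256 in SWP. Their part in the results was not tested.

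At baseline the levels of the members covered a wide, continuous range. Per kb of the Ensembl canonical transcript, the highest mean levels in MYC WT were those of HLA-C at 13389, B2M at 10977, ADAR at 4762 and HLA-B at 4641 normalized counts per kb. Among the others, USP18 (612), ISG15 (589) and HERC5 (665) lay far below these on the same scale. IFIT1 (154), RIGI (70.6) and IFIH1 (22.4) were lower still, and OAS3 reached 1.23. Further members lay between these examples, such as IRF3 (2929) and TAP1 (500). OAS1, OAS2, MX2, IFI44 and XAF1, which in many cell types respond strongly to interferon, had at most 3 reads in every library of the 3 lines. MX1, an antiviral GTPase, had normalized counts of 3.08, 4.49 and 3.85 in MYC WT, 1.85, 0.972 and 5.84 in MYC MUT and 0, 0.743 and 1.15 in SWP. RSAD2, which encodes viperin, had 0, 2.24 and 4.81 in MYC WT, 1.85, 0 and 1.95 in MYC MUT and 3.44, 0.743 and 0 in SWP. These values lie at or near the limit of detection. The MX1 libraries of MYC WT lay above all those of SWP, on 11 and 2 reads in all. With all genes included in the limma fit, this difference was not called (log2 fold change -1.62, adjusted p = 0.0878). Apart from it, no difference between the lines could be read from these values at this depth. None of the 21 interferon ligand genes examined exceeded 2 reads in any library, IFNB1 included, and 15 of them had 0 reads in all 9.

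Many promoters of the set hold letters that the interferon-activated complex binds. RefSeq promoters (GRCh38.p14), which span 250 bases before to 50 bases after the start, were given for 38 of the 49 members, and CGAS, IFIT2, IFITM2, IRF3, IRF7, MX2, OAS2, OASL, STING1, TRIM22 and USP18 were not among them. The core of the response element, searched as GAAA, 2 unspecified bases and GAAA on either strand, was present in 21 of the 38 (55.3%), against 996 of all 27305 promoters (3.65%). For 8 members the stretch around 1 match is printed 5′ to 3′ on the gene's own strand, with the core in capitals, so that genes that differed between the lines can be set beside ISG15 and IFIT1, which passed the thresholds in none of the comparisons. In 3 of them the core lies on the opposite strand and so reads TTTC.
ISG15: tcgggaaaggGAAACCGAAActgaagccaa
IFIT1: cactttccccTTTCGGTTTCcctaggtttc
IFIT3: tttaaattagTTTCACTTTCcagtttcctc
OAS3: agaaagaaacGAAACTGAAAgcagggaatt
SAMD9: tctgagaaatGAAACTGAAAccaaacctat
DDX60: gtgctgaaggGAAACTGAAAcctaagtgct
IFITM3: caaatgccagGAAAAGGAAActgttgagaa
TAP1: ccgctttcgaTTTCGCTTTCccctaaatgg

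The cores start at positions -107, -103, -122, -143, -136, -88, -52 and -128 relative to the start, in the order printed. ISG15 and TAP1 hold a further core, at -113 and -134, that overlaps the printed one. A further core apart from the printed one lies at -116 in IFIT1, -156 in IFIT3, -12 in OAS3, -53 in DDX60 and -35 in IFITM3. SAMD9 holds only the printed core. The stretches lie at chr1:1013380-1013409 (plus strand) for ISG15, chr10:89392510-89392539 (plus) for IFIT1, chr10:89327865-89327894 (plus) for IFIT3, chr12:112938321-112938350 (plus) for OAS3, chr7:93118096-93118125 (minus) for SAMD9, chr4:168318821-168318850 (minus) for DDX60, chr11:320893-320922 (minus) for IFITM3 and chr6:32853813-32853842 (minus) for TAP1. Among members with a promoter in the table, the core was present in 11 of the 15 that changed in any comparison and in 8 of the 16 that were tested and changed in none. It was also present in 2 of the 7 that were too low to test. MX1 is one of these 2, so the letters occurred beside a gene that was nearly silent in all 3 lines.

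Between the lines the members did not move as 1 block. A gene was counted as changed at a Benjamini-Hochberg adjusted p under 0.05 from limma and a log2 fold change beyond 0.5, both on log2(normalized count + 1), a scale that understates the change of low genes. Changes in MYC MUT against MYC WT were mostly upward, with 12 of 38 tested members higher and 2 lower, where 11.3% of all tested genes were higher and 10.1% lower. In SWP against MYC WT, 1 member was higher and 8 were lower, where the shares of all tested genes were 2.15% and 2.98%. In MYC MUT against SWP, 17 members were higher and 0 lower by limma (5 at an unadjusted p under 0.05, which also had an adjusted p under 0.05), against 12.3% and 8.31% of all tested genes, while edgeR and DESeq2 each called 1 lower. In bulk RNA, fewer cells that express a gene and less RNA per cell cannot be told apart. The 3 comparisons share libraries and are not independent of each other.

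The median log2 fold change of the 38 tested members was 0.13 in MYC MUT against MYC WT, -0.12 in SWP against MYC WT and 0.60 in MYC MUT against SWP, where the medians of all tested genes were -0.003, -0.055 and 0.044. With the bound in place of the fitted value for IRF7 in SWP the second median stayed at -0.12. The first median rose to 0.18 without MYC WT replicate 1 and to 0.20 without MYC MUT replicate 3, and the second was -0.059 without SWP replicate 1. Of the 38 tested members, 19 changed in at least 1 comparison and 19 in none. In all genes the higher share of the calls in MYC MUT against MYC WT was 52.8%, and 64.2% when the libraries were rescaled to equal totals, where 13 members were higher and 2 lower. With equal totals, 2874 of all 20884 tested genes were higher and 1600 lower.

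**Figure D1:**
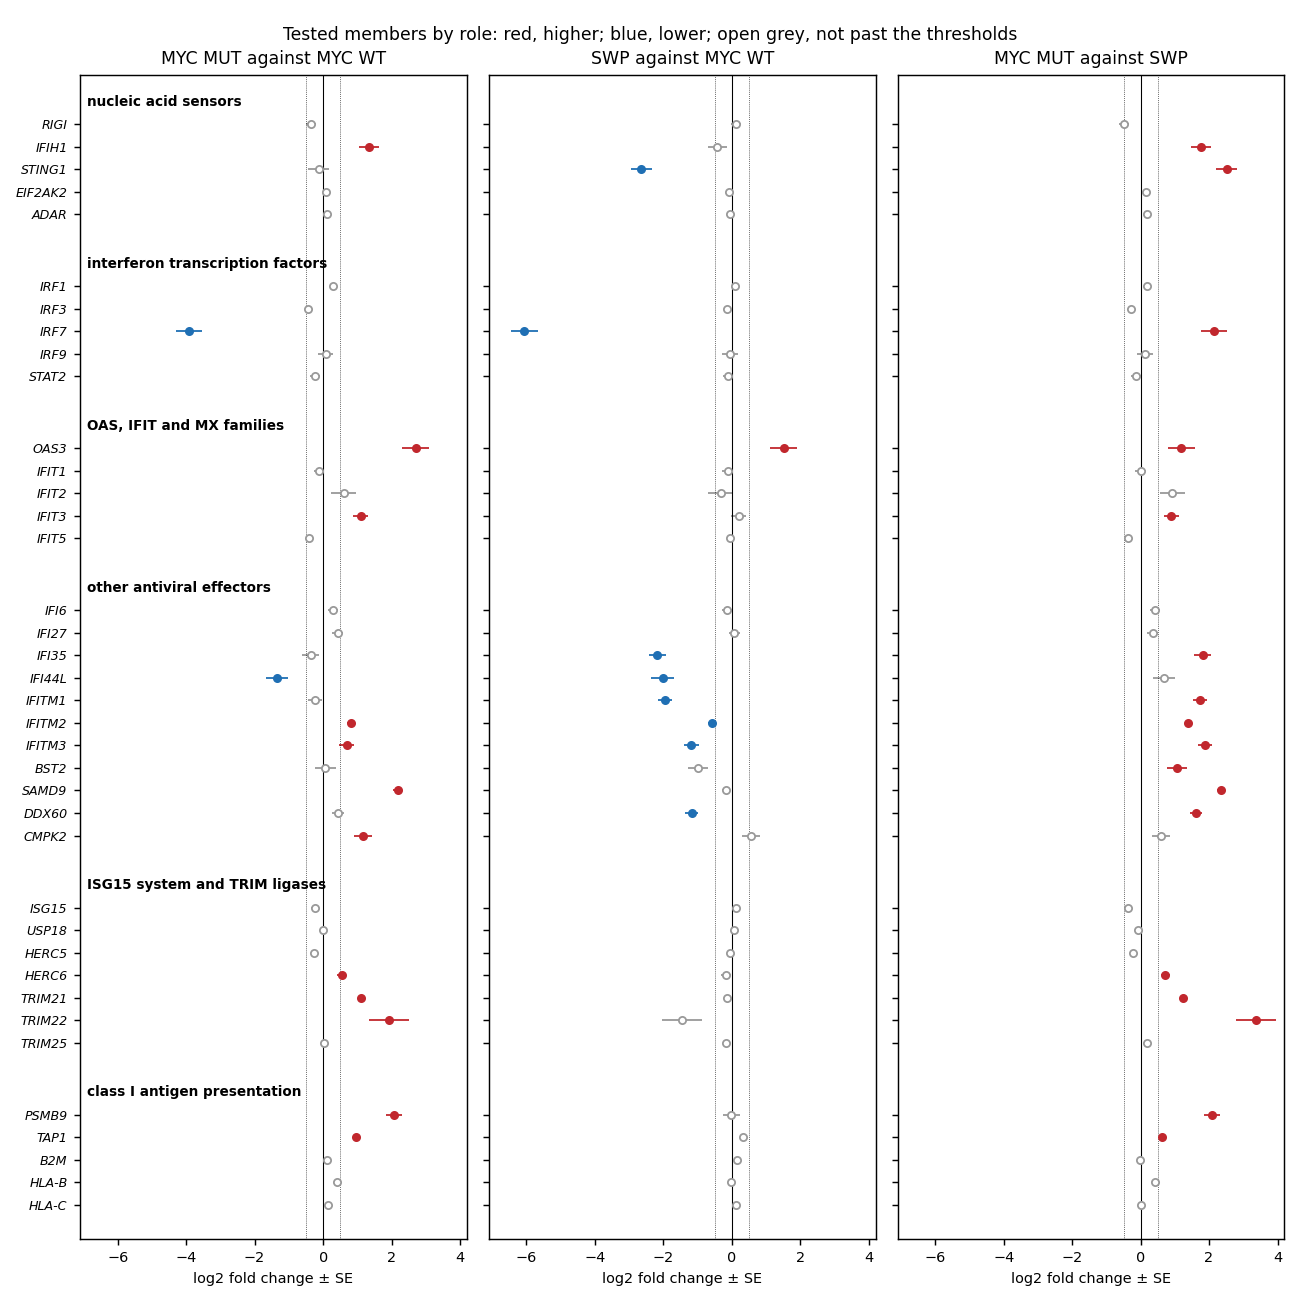
Log2 fold change with its standard error (x axis) of the 38 tested members, grouped by role, in the 3 comparisons, each of 3 libraries against 3. Filled points passed both thresholds (red higher, blue lower), open points did not, dotted lines mark ±0.5, and the SWP value of IRF7 rests on 0 reads in all 3 SWP libraries.

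Among the 6 nucleic acid sensors, IFIH1 rose in MYC MUT and STING1 fell in SWP, while RIGI, EIF2AK2 and ADAR passed the thresholds in no comparison. IFIH1 (chr2:162267074-162318684) encodes the long double-stranded RNA sensor MDA5. IFIH1 had normalized counts of 69.7, 99.9 and 71.2 in MYC WT, 217, 192 and 198 in MYC MUT and 34.4, 77.3 and 76.1 in SWP. All MYC MUT libraries lay above all libraries of the other lines, and SWP replicate 1 was the lowest of the 9. The log2 fold change was 1.34 ± 0.28, adjusted p = 0.00321 against MYC WT, a ratio of means of 2.52, and 1.76 ± 0.28, adjusted p = 0.000561 against SWP. RIGI, which encodes the sensor of short 5′-triphosphate RNA, had normalized counts of 285, 340.1 and 355 in MYC WT, 234, 280.0 and 248 in MYC MUT and 286, 379.6 and 405 in SWP. Its MYC MUT libraries were below those of both other lines, with differences of -0.36 ± 0.15, adjusted p = 0.0784 against MYC WT and -0.48 ± 0.15, adjusted p = 0.0261 against SWP. The latter missed the fold threshold in limma but passed it in edgeR and DESeq2 (log2 fold change -0.52 and -0.53), without MYC MUT replicate 2 (-0.55) and without SWP replicate 1 (-0.63).

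STING1 (chr5:139475533-139482935) encodes the adaptor that cGAS activates. STING1 had normalized counts of 47.2, 41.5 and 43.3 in MYC WT, 31.4, 41.8 and 48.7 in MYC MUT and 3.44, 8.17 and 8.07 in SWP. The SWP libraries did not overlap the others, with a log2 fold change of -2.65 ± 0.31, adjusted p = 0.000282, or 6.71-fold lower than the MYC WT mean. The SWP level rests on 21 reads in all, and the log2 fold change ran from -2.83 to -1.72 over the alternative fits. MYC MUT and MYC WT overlapped, at -0.13 ± 0.31, adjusted p = 0.765. MYC MUT was higher than SWP by 2.52 ± 0.31, adjusted p = 9.19e-05. CGAS itself was below the minimum for testing. CGAS had normalized counts of 3.08, 4.49 and 3.85 in MYC WT, 4.62, 4.86 and 4.87 in MYC MUT and 3.44, 3.71 and 1.15 in SWP. EIF2AK2, the kinase PKR that halts translation on binding double-stranded RNA, and ADAR, which edits adenosine in it, were well expressed in every library. Neither passed an adjusted p of 0.05 in any comparison, with log2 differences from -0.08 to 0.17.

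Of the 5 transcription factors, IRF7 fell in both edited lines and the others passed both thresholds in no comparison. IRF7 (chr11:612553-615983) encodes the factor that amplifies type I interferon production. IRF7 had normalized counts of 76.9, 67.3 and 54.9 in MYC WT, 6.47, 1.94 and 2.92 in MYC MUT and 0, 0 and 0 in SWP. The MYC MUT libraries held 7, 2 and 3 reads, a log2 fold change of -3.92 ± 0.39, adjusted p = 2.44e-05. In SWP no read was counted in any library, so that its level was at least 21.8-fold lower than the MYC WT mean of 66.4 ± 11.04 (SD, n = 3), taking 3 reads per library as the floor. MYC MUT against SWP passed the thresholds (adjusted p = 0.00126), but with a pseudocount of 10 it did not (log2 fold change 0.45), and no fold is given since both lines were at or near the floor.

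IRF3, which acts upstream of interferon production, had normalized counts of 4639, 4296 and 5078 in MYC WT, 3266, 3565 and 3549.8 in MYC MUT and 3868, 4368 and 4499.8 in SWP. The MYC MUT libraries lay below all MYC WT libraries, and the difference of -0.43 ± 0.08, adjusted p = 0.00207 did not reach the fold threshold. STAT2 and IRF9 encode parts of the complex that binds the response element. STAT2 had normalized counts of 2049, 2989 and 2579 in MYC WT, 2066, 2427 and 1889 in MYC MUT and 2068, 2643 and 2275 in SWP. All 3 lines overlapped, with differences of -0.25 ± 0.14, adjusted p = 0.198 in MYC MUT and -0.11 ± 0.14, adjusted p = 0.692 in SWP. IRF9 had normalized counts of 51.3, 40.4 and 40.4 in MYC WT, 45.3, 54.4 and 39.9 in MYC MUT and 55.0, 33.4 and 40.4 in SWP. It overlapped too and differed by 0.08 ± 0.23, adjusted p = 0.816 and -0.06 ± 0.23, adjusted p = 0.916. IRF1, which controls MHC class I genes among others, was at 521, 543 and 543 in MYC WT and 639, 658 and 660.5 in MYC MUT, a difference of 0.28 ± 0.08, adjusted p = 0.0187 that was also under the fold threshold.

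In the OAS, IFIT and MX families, 5 of 10 members could be tested and OAS3 and IFIT3 rose in MYC MUT. OAS3 (chr12:112938051-112976460) encodes a synthetase of 2′-5′ oligoadenylate that activates RNase L. OAS3 had normalized counts of 10.3, 11.2 and 2.89 in MYC WT, 54.5, 50.6 and 50.7 in MYC MUT and 26.4, 22.3 and 18.5 in SWP. The 3 lines did not overlap, with MYC WT lowest and MYC MUT highest. The log2 fold change was 2.70 ± 0.39, adjusted p = 0.000298 in MYC MUT and 1.51 ± 0.39, adjusted p = 0.0308 in SWP against MYC WT, and 1.19 ± 0.39, adjusted p = 0.0311 between the edited lines. Only the first of these held in every alternative run. The SWP call was lost without any 1 of the SWP or MYC MUT libraries (1.39 to 1.64 without an SWP library, 1.51 without a MYC MUT library), with all genes included, with eBayes without a trend and in a fit of the 2 lines alone, each with an adjusted p above 0.05. The call between the edited lines was lost with all genes included and without any 1 MYC MUT library or without SWP replicate 2 or 3 (1.07 to 1.21). Its neighbours OAS1 and OAS2 on the same stretch of chromosome 12 stayed at 0 to 2 reads per library.

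The IFIT genes, whose proteins bind foreign RNA ends, lie side by side on chromosome 10, and IFIT3 was the 1 of them that passed both thresholds. IFIT3 (chr10:89327307-89377473) had normalized counts of 41.0, 29.2 and 41.4 in MYC WT, 74.0, 85.5 and 79.9 in MYC MUT and 47.0, 50.5 and 32.3 in SWP. Every MYC MUT library was above every other library, at 1.096 ± 0.22, adjusted p = 0.00245 against MYC WT and 0.89 ± 0.22, adjusted p = 0.00796 against SWP. IFIT1 overlapped between all lines, with normalized counts of 625, 641 and 726 in MYC WT, 539, 711 and 588 in MYC MUT and 485, 746 and 618 in SWP. It differed by -0.12 ± 0.15, adjusted p = 0.565 and -0.13 ± 0.15, adjusted p = 0.686. IFIT2 had a mean of 19.1 ± 4.13 in MYC WT, 30.5 ± 10.3 in MYC MUT and 16.0 ± 7.33 in SWP (SD, n = 3), with a difference between the edited lines of 0.93 ± 0.36, adjusted p = 0.0648. That difference passed both thresholds with the replicate number as a block (adjusted p = 0.0187) and without MYC MUT replicate 1 (1.21) or SWP replicate 2 (1.25). IFIT5 was lower in MYC MUT in all 3 libraries, 1118, 1148 and 1068 against 1585, 1405 and 1494 in MYC WT, but its difference of -0.43 ± 0.09, adjusted p = 0.00255 did not reach the fold threshold.

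The 15 other antiviral effectors included IFITM, SAMD9 and IFI genes that changed in either edited line. Of the 11 tested, 4 were higher and 1 lower in MYC MUT against MYC WT, where 11.3% and 10.1% of all tested genes were. In SWP against MYC WT 6 were lower (2.98% of all tested genes), and in MYC MUT against SWP 7 were higher (12.3%). None was higher in SWP by limma at an unadjusted p under 0.05 or by edgeR or DESeq2. Their median log2 fold changes in these comparisons were 0.43, -0.998 and 1.39. The 3 IFITM genes encode membrane proteins that restrict the entry of enveloped viruses and lie within a short stretch at one end of chromosome 11. All 3 fell in SWP, and IFITM2 and IFITM3 rose in MYC MUT. Their sequences are close to each other, and aligned reads can be assigned to the wrong copy, so that the values of single IFITM genes are uncertain.

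IFITM2 (chr11:303655-309397) had normalized counts of 443, 468 and 527 in MYC WT, 808, 812 and 895 in MYC MUT and 323, 294 and 341 in SWP. No 2 lines overlapped, with a log2 fold change of 0.81 ± 0.10, adjusted p = 0.000137 in MYC MUT and -0.58 ± 0.10, adjusted p = 0.00455 in SWP. IFITM3 (chr11:319676-329475) had normalized counts of 42.0, 46.0 and 62.6 in MYC WT, 86.9, 65.1 and 92.5 in MYC MUT and 24.1, 20.1 and 19.6 in SWP. The order was again SWP, MYC WT, MYC MUT with no overlap, at 0.69 ± 0.22, adjusted p = 0.0266 and -1.19 ± 0.22, adjusted p = 0.00545. The rise of IFITM3 in MYC MUT lost its call with all genes included. Leaving out replicate 1 or 2 of MYC WT, or replicate 1 or 3 of MYC MUT, also ended it (0.58 to 0.64). IFITM1 (chr11:310041-315272) had normalized counts of 148, 226 and 176 in MYC WT, 149, 160.4 and 152 in MYC MUT and 36.7, 60.2 and 42.7 in SWP. MYC WT and MYC MUT overlapped, at -0.23 ± 0.20, adjusted p = 0.405, while SWP was separate and lower, at -1.96 ± 0.20, adjusted p = 0.000133, or 3.94-fold below the MYC WT mean.

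SAMD9, a cytoplasmic restriction factor of poxviruses (chr7:93099513-93118023), had the smallest adjusted p of the 38 tested members in MYC MUT against MYC WT. It had normalized counts of 278, 218 and 228 in MYC WT, 1103, 1123 and 1035 in MYC MUT and 241, 209 and 191 in SWP. MYC WT and SWP overlapped, at -0.17 ± 0.12, adjusted p = 0.45, and MYC MUT was 4.5-fold above the MYC WT mean, at 2.17 ± 0.12, adjusted p = 6.73e-07. Its paralogue SAMD9L, next to it on chromosome 7, was below the minimum for testing. SAMD9L had normalized counts of 1.03, 1.12 and 0.963 in MYC WT, 7.40, 9.72 and 9.74 in MYC MUT and 1.15, 0 and 0 in SWP. Relative to MYC WT the summed reads of SAMD9L in MYC MUT, per unit of size factor, were 8.64-fold higher (95% exact interval 2.67 to 44.4, counting error only). With all genes included in the fit, which lowers the minimum to any read, SAMD9L was called higher in MYC MUT against MYC WT (adjusted p = 0.00117). The paralogues share sequence, and how reads were split between them was not tested.

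IFI35, IFI44L and DDX60 fell in SWP. IFI35 (chr17:43006740-43014456) encodes an interferon-induced leucine zipper protein. IFI35 had normalized counts of 210.1, 267 and 339.8 in MYC WT, 162, 225 and 245 in MYC MUT and 42.4, 65.4 and 71.5 in SWP. SWP was apart from the other lines, which overlapped, with a difference of -2.18 ± 0.24, adjusted p = 0.000204. DDX60 (chr4:168216291-168318883) encodes a helicase that supports RNA sensing. DDX60 had normalized counts of 258, 398 and 313 in MYC WT, 424, 401 and 469 in MYC MUT and 110.0, 162 and 155 in SWP. SWP differed from MYC WT by -1.18 ± 0.18, adjusted p = 0.00207, and the MYC MUT libraries lay above all MYC WT libraries without passing the test, at 0.43 ± 0.18, adjusted p = 0.0816. That difference passed both thresholds only without MYC WT replicate 2 (0.60). IFI44L (chr1:78619902-78646145), a feedback regulator of the interferon response, was the 1 effector that fell in both edited lines. IFI44L had normalized counts of 58.4, 76.3 and 83.8 in MYC WT, 22.2, 30.1 and 32.1 in MYC MUT and 9.17, 23.8 and 21.9 in SWP. It differed from MYC WT by -1.34 ± 0.33, adjusted p = 0.00804 in MYC MUT and -2.03 ± 0.33, adjusted p = 0.00281 in SWP. The edited lines overlapped, at 0.68 ± 0.33, adjusted p = 0.126, and this difference was called only with the replicate number as a block (adjusted p = 0.0262).

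BST2 (chr19:17402939-17405630) encodes tetherin, which holds budding virions on the cell surface. BST2 had normalized counts of 37.9, 37.0 and 29.8 in MYC WT, 41.6, 39.9 and 29.2 in MYC MUT and 10.3, 20.1 and 23.1 in SWP. MYC WT and MYC MUT overlapped, and SWP lay below both, with 1.07 ± 0.29, adjusted p = 0.0148 for MYC MUT against SWP and -0.998 ± 0.29, adjusted p = 0.0568 for SWP against MYC WT. The first call was lost without MYC MUT replicate 1 (0.97) or 2 (adjusted p = 0.0544). The second was gained with the replicate block (-0.998, adjusted p = 0.0318), with a pseudocount of 10 (-0.72) and without SWP replicate 3 (-1.21). CMPK2 (chr2:6840570-6866635) encodes a mitochondrial nucleotide kinase. CMPK2 had normalized counts of 8.20, 11.2 and 11.6 in MYC WT, 31.4, 20.4 and 21.4 in MYC MUT and 17.2, 14.9 and 15.0 in SWP. Each line was separate from the others, and the rise in MYC MUT passed the thresholds, at 1.15 ± 0.26, adjusted p = 0.0052. The difference of 0.59 ± 0.26, adjusted p = 0.102 between the edited lines was called only in limma without a trend. CMPK2 shares 351 exon bases with RSAD2 on the opposite strand, and RSAD2 was near 0. IFI6 and IFI27, both strongly interferon-inducible in other cells, passed the thresholds in no comparison, with differences in MYC MUT against MYC WT of 0.30 ± 0.15, adjusted p = 0.137 and 0.43 ± 0.17, adjusted p = 0.065. IFI27 was called there with equal totals (adjusted p = 0.0337), and IFI6 in MYC MUT against SWP without SWP replicate 3 (0.54).

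**Figure D2:**
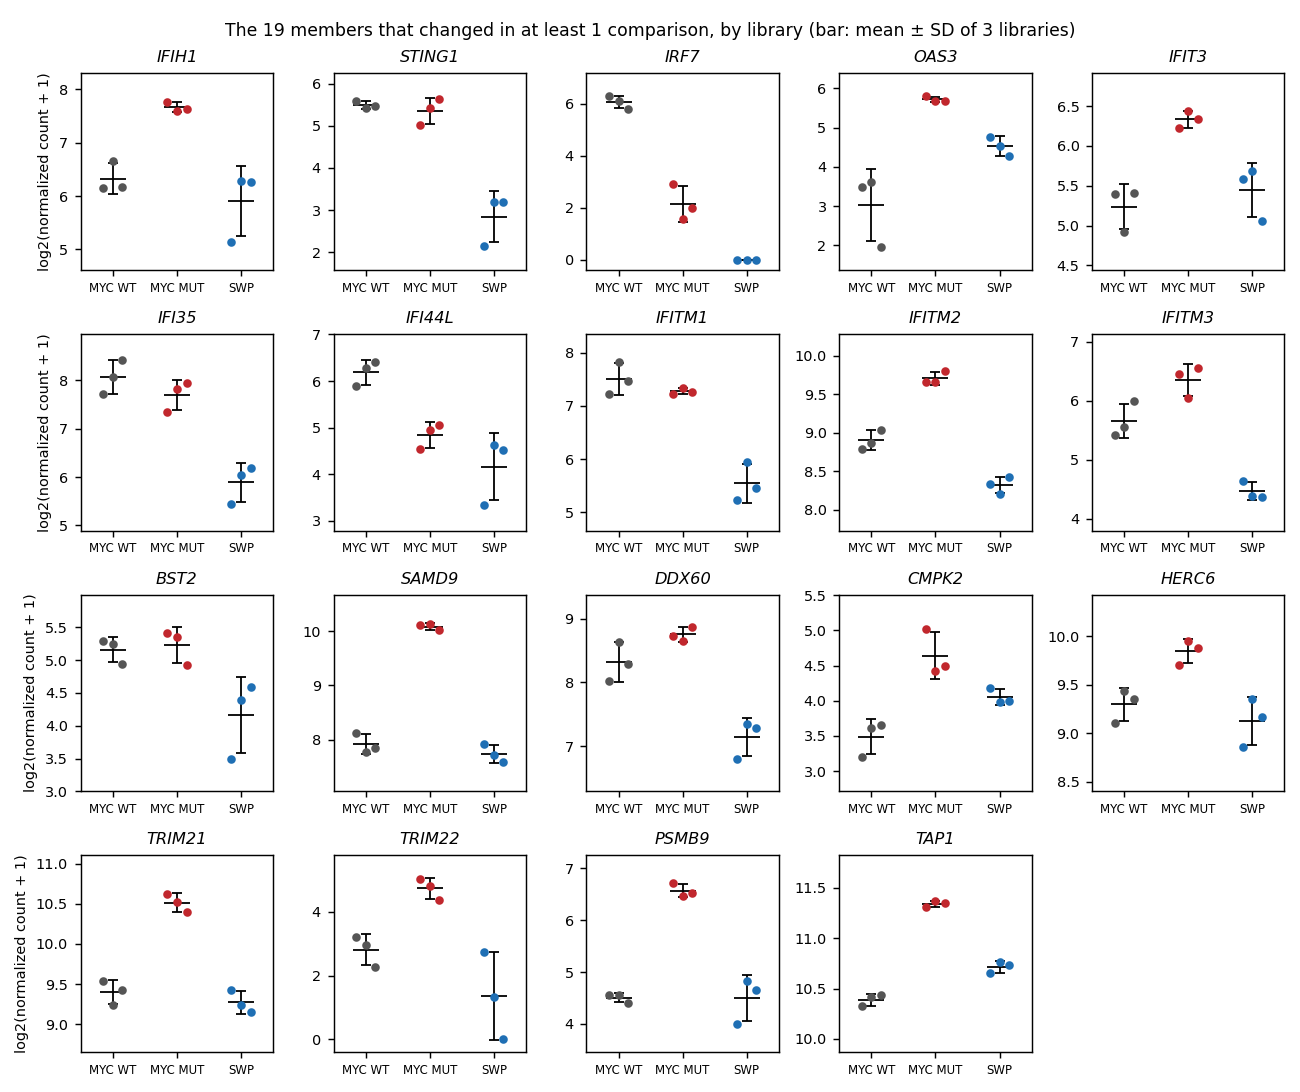
Log2(normalized count + 1) (y axis, with its own range in each panel) of the 19 members that changed in at least 1 comparison, by line (x axis, 3 libraries each). Points are libraries and bars are the mean ± SD; SAMD9, TRIM21, PSMB9 and TAP1 are highest in all 3 MYC MUT libraries, while STING1, IFI35 and IFITM1 are lowest in all 3 SWP libraries.

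Of the 7 genes of the ISG15 system and the TRIM ligases, TRIM21, TRIM22 and HERC6 rose in MYC MUT and none passed the thresholds in SWP against MYC WT (limma, with 2 at an unadjusted p under 0.05, and 0 by edgeR and DESeq2). ISG15 (chr1:1001138-1014540) encodes the ubiquitin-like modifier whose gene is among the first induced by interferon. ISG15 had normalized counts of 372, 354 and 400.5 in MYC WT, 294, 311 and 343 in MYC MUT and 453, 376 and 406 in SWP. Its MYC MUT libraries lay below all others, with differences of -0.25 ± 0.11, adjusted p = 0.098 against MYC WT and -0.38 ± 0.11, adjusted p = 0.0193 against SWP that did not reach the fold threshold. USP18, which removes ISG15 from proteins and dampens the interferon receptor, had normalized counts of 1123, 1049.5 and 1239 in MYC WT, 1082, 1064 and 1294 in MYC MUT and 1208, 1164 and 1211 in SWP. It differed by 0.01 ± 0.10, adjusted p = 0.951 and 0.07 ± 0.10, adjusted p = 0.709. HERC5, the main ISG15 ligase, differed by -0.27 ± 0.08, adjusted p = 0.0202 in MYC MUT, and TRIM25, the ligase that activates RIG-I, by 0.02 ± 0.07, adjusted p = 0.856.

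HERC6 (chr4:88378739-88443097), which lies beside HERC5, rose in MYC MUT. HERC6 had normalized counts of 551, 690.3 and 653 in MYC WT, 835, 989.6 and 939 in MYC MUT and 463, 651 and 573 in SWP. All MYC MUT libraries were the highest, at 0.55 ± 0.13, adjusted p = 0.0082 against MYC WT and 0.72 ± 0.13, adjusted p = 0.00161 against SWP, and the first fell under the fold threshold without MYC WT replicate 1 (0.45) or MYC MUT replicate 2 (0.49). TRIM21 (chr11:4384897-4393702) encodes a cytosolic antibody receptor and ubiquitin ligase. TRIM21 had normalized counts of 743, 603 and 686 in MYC WT, 1583, 1472 and 1345 in MYC MUT and 687, 603 and 565 in SWP. MYC WT and SWP overlapped, and MYC MUT was 2.16-fold above the MYC WT mean, at 1.12 ± 0.11, adjusted p = 2.37e-05. TRIM22 (chr11:5689610-5737089) encodes an antiviral ligase on the same arm of chromosome 11. TRIM22 had normalized counts of 8.20, 6.73 and 3.85 in MYC WT, 31.4, 27.2 and 19.5 in MYC MUT and 5.73, 1.49 and 0 in SWP. MYC MUT was separate from both other lines, at 1.92 ± 0.59, adjusted p = 0.0237 and 3.38 ± 0.59, adjusted p = 0.00101 against MYC WT and SWP. Its counts were low, and the call against MYC WT was lost with a pseudocount of 0.1. Leaving out MYC WT replicate 3 (1.65) ended it too, as did leaving out replicate 1 (1.78) or 2 (1.88) of MYC MUT. In SWP against MYC WT the difference of -1.46 ± 0.59, adjusted p = 0.157 was called only with the replicate block (adjusted p = 0.0341) and without SWP replicate 1 (-2.15).

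The 6 class I presentation members comprise the peptide-cutting immunoproteasome subunits PSMB8 and PSMB9, the peptide transporter subunit TAP1, the heavy chains HLA-B and HLA-C, and the light chain B2M. PSMB9 and TAP1 rose in MYC MUT, and none of the 5 tested passed the thresholds in SWP against MYC WT (limma, with 2 at an unadjusted p under 0.05, and 0 by edgeR and DESeq2). PSMB9 (chr6:32844136-32859851) had normalized counts of 22.6, 22.4 and 20.2 in MYC WT, 104, 87.5 and 91.6 in MYC MUT and 14.9, 27.5 and 24.2 in SWP. SWP and MYC WT overlapped, at -0.01 ± 0.24, adjusted p = 0.982, and MYC MUT was 4.35-fold above MYC WT, at 2.07 ± 0.24, adjusted p = 6.39e-05. TAP1 (chr6:32845209-32853816), which lies within the annotated span of PSMB9, had normalized counts of 1279, 1365 and 1382 in MYC WT, 2536, 2645 and 2603 in MYC MUT and 1609.7, 1742 and 1698 in SWP. The 3 lines did not overlap, with log2 fold changes of 0.95 ± 0.07, adjusted p = 3.18e-06 in MYC MUT, 0.33 ± 0.07, adjusted p = 0.0117 in SWP (under the fold threshold) and 0.62 ± 0.07, adjusted p = 4.26e-05 between the edited lines.

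PSMB8, the next gene in this cluster (chr6:32840717-32844679), was below the minimum for testing. PSMB8 had normalized counts of 0, 1.12 and 2.89 in MYC WT, 17.6, 14.6 and 19.5 in MYC MUT and 1.15, 1.49 and 2.31 in SWP. Its MYC MUT libraries did not overlap the others, and the ratio of summed reads to MYC WT was 12.5 (95% exact interval 4.61 to 47.5, counting error only). With all genes included in the fit it was called higher (adjusted p = 0.00046). Exons of these genes overlap others, with 17.3% of the exon bases of PSMB8, 5.21% of PSMB9 and 14.2% of TAP1 shared, with PSMB8-AS1 among the partners of each, and how the counting treated strand and shared bases was not stated.

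HLA-B, HLA-C and B2M, the class I chains in the set, passed both thresholds in no comparison. HLA-B had normalized counts of 6728, 7668 and 6989 in MYC WT, 9439, 9478 and 9465 in MYC MUT and 6104, 7479 and 7539 in SWP. All MYC MUT libraries were highest, at 0.41 ± 0.09, adjusted p = 0.00335, under the fold threshold. HLA-C had normalized counts of 19105, 20800.3 and 22031 in MYC WT, 22677, 22620.5 and 23153 in MYC MUT and 20496, 23126 and 24343 in SWP. It overlapped between SWP and both other lines and differed by 0.15 ± 0.08, adjusted p = 0.158 in MYC MUT and 0.13 ± 0.08, adjusted p = 0.339 in SWP. B2M had normalized counts of 10523, 10649.9 and 9882 in MYC WT, 11301, 11099 and 11074 in MYC MUT and 11264, 11465 and 11454 in SWP. Both edited lines lay above all MYC WT libraries, by 0.11 ± 0.06, adjusted p = 0.15 in MYC MUT and 0.14 ± 0.06, adjusted p = 0.158 in SWP. HLA genes are alike and polymorphic, so that reads can be assigned to the wrong locus, and 47.3% of the exon bases of HLA-B are shared with other annotated genes.

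A further 158 genes of the same pathways, listed by name and not members of the set, were counted for comparison. Of the 104 that could be tested, 27 were higher and 8 lower in MYC MUT against MYC WT, 6 and 8 in SWP against MYC WT, and 30 and 8 in MYC MUT against SWP, with median log2 fold changes of 0.17, -0.12 and 0.27. The shares of all tested genes, higher and lower, were 11.3% and 10.1%, 2.15% and 2.98%, and 12.3% and 8.31%, in the same order. Of 16 receptors, kinases and STATs, 0 were higher and 1 lower in MYC MUT against MYC WT, and 0 changed in SWP against MYC WT by limma, with 6 at an unadjusted p under 0.05, and 0 by edgeR and DESeq2. The receptor genes IFNAR1 and IFNAR2 differed in MYC MUT by 0.18 ± 0.11, adjusted p = 0.235 and 0.11 ± 0.11, adjusted p = 0.461, and the kinase TYK2 by 0.03 ± 0.07, adjusted p = 0.768. JAK1 was at 8861 ± 697 in MYC WT, 8423 ± 565 in MYC MUT and 6404 ± 332 in SWP (SD, n = 3). Its SWP difference of -0.47 ± 0.08, adjusted p = 0.00353 passed the fold threshold only without MYC WT replicate 3 (-0.53) or SWP replicate 1 (-0.50).

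IFNGR1, a chain of the interferon gamma receptor (chr6:137197483-137219449), was the 1 receptor gene that fell in MYC MUT, with a log2 fold change of -0.72 ± 0.09, adjusted p = 0.000129. IFNGR1 had normalized counts of 4962, 4364 and 4992 in MYC WT, 3063, 2818 and 2782 in MYC MUT and 5661, 5435 and 4570.2 in SWP. For the tested genes within 5 Mb of it the median was -0.67 in the same comparison, where a negative median means that these neighbours were lower too. MAVS, the adaptor of RIG-I and MDA5, differed by 0.17 ± 0.09, adjusted p = 0.155, and MYD88, the adaptor of Toll-like receptors, rose in MYC MUT, at 83.2, 99.2 and 74.0 against 48.2, 32.6 and 36.6 (1.12 ± 0.20, adjusted p = 0.00128). Among the further interferon-stimulated genes, 12 of 40 tested were higher and 4 lower in MYC MUT, and 5 and 3 in SWP. Of all tested genes, 11.3% were higher and 10.1% lower in MYC MUT, and 2.15% and 2.98% in SWP. TRIM5, which restricts retroviral capsids and lies near TRIM22, had normalized counts of 421, 412 and 321 in MYC WT, 1343, 1391 and 1285 in MYC MUT and 136, 172 and 122 in SWP. Its lines did not overlap and the edited lines lay on opposite sides of MYC WT, at 1.81 ± 0.14, adjusted p = 6.12e-06 and -1.42 ± 0.14, adjusted p = 0.00011.

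SP110, a nuclear body protein, had normalized counts of 14.4, 25.8 and 16.4 in MYC WT, 108, 133 and 107 in MYC MUT and 36.7, 32.7 and 36.9 in SWP. It was higher than in MYC WT by 2.60 ± 0.23, adjusted p = 1.12e-05 in MYC MUT and 0.92 ± 0.23, adjusted p = 0.0272 in SWP. The SWP call was lost without MYC WT replicate 1 (0.75) or 3 (0.84) or SWP replicate 2 (0.97) or 3 (0.89), with all genes included and in a fit of the 2 lines alone. LGALS3BP, a secreted galectin-binding glycoprotein, fell in SWP from 1968, 2262 and 1931 to 252, 375 and 413 (-2.59 ± 0.16, adjusted p = 2.54e-06), while MYC MUT was at 2165, 2354 and 2533. The direct test of the edited lines gave 2.79 ± 0.16, adjusted p = 3.24e-07. DTX3L, a ubiquitin ligase of DNA damage and interferon responses, rose in SWP from 339, 296 and 277 to 842, 698 and 647 (1.25 ± 0.12, adjusted p = 6.71e-05), with MYC MUT at 345, 346 and 337 and a difference from SWP of -1.08 ± 0.12, adjusted p = 4.6e-05.

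Of the further antigen presentation genes, 10 of 29 tested were higher and 2 lower in MYC MUT against MYC WT, where 11.3% and 10.1% of all tested genes were. Genes of this list also went down in MYC MUT, with no overlap with MYC WT. RFXAP went from 1946, 2174 and 2244 normalized counts in MYC WT to 1001, 1150 and 1053. CANX went from 102055, 102786 and 95091 to 67305, 68977 and 70182. TAP2 moved less, from 2702, 2790 and 2359.5 to 2320, 2145 and 2244. One of those higher was the class I heavy chain HLA-F. It was named after its values were seen, as were RFXAP, CANX and TAP2. HLA-F had normalized counts of 681, 697 and 615 in MYC WT, 1069.5, 1101 and 1013 in MYC MUT and 407, 596 and 519 in SWP. Its MYC MUT libraries were the highest, at 0.68 ± 0.13, adjusted p = 0.00174 against MYC WT and 1.08 ± 0.13, adjusted p = 7.45e-05 against SWP. NLRC5, the transactivator of class I genes, had normalized counts of 82.0, 96.5 and 64.5 in MYC WT, 132, 149 and 93.5 in MYC MUT and 53.8, 100.3 and 81.9 in SWP. All lines overlapped, and MYC MUT differed from MYC WT by 0.61 ± 0.26, adjusted p = 0.0811 and from SWP by 0.68 ± 0.26, adjusted p = 0.0566. The first was called without MYC MUT replicate 3 (0.80) or SWP replicate 1 (0.61), with the replicate block (adjusted p = 0.0218), by DESeq2 and in a fit of the 2 lines alone, and the second without MYC MUT replicate 3 (0.87) or SWP replicate 2 (0.87) and with the replicate block (adjusted p = 0.0129). The 8 class II genes of the list, which present peptides from outside the cell and are mostly restricted to immune cells, included 5 that could be tested. Of these, 4 were higher in MYC MUT and 2 lower in SWP against MYC WT, and all 5 were higher in MYC MUT than in SWP. The shares of all tested genes that did so were 11.3%, 2.98% and 12.3%.

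HLA-DRB1 had normalized counts of 457, 331 and 379 in MYC WT, 1445, 1244 and 1219.6 in MYC MUT and 344, 342 and 310.2 in SWP. MYC WT and SWP overlapped, at -0.22 ± 0.13, adjusted p = 0.335, and MYC MUT was higher by 1.75 ± 0.13, adjusted p = 3.04e-06. HLA-DPA1 had normalized counts of 421, 378 and 276 in MYC WT, 716, 661 and 628 in MYC MUT and 113, 122 and 104 in SWP. HLA-DPB1 had 42.0, 60.6 and 51.0 in MYC WT, 162, 152 and 133 in MYC MUT and 17.2, 23.8 and 25.4 in SWP. For both HLA-DP chains no 2 lines overlapped, with MYC MUT highest and SWP lowest, at 0.92 ± 0.15, adjusted p = 0.000757 and -1.64 ± 0.15, adjusted p = 5.42e-05 for HLA-DPA1 and 1.53 ± 0.21, adjusted p = 0.000197 and -1.18 ± 0.21, adjusted p = 0.00423 for HLA-DPB1. The class II master regulator CIITA, the chain HLA-DRA and the invariant chain CD74 had means over the 9 libraries under the minimum of 10 normalized counts. Means in MYC WT, MYC MUT and SWP were 3.16, 2.90 and 1.89 for CIITA. HLA-DRA had 11.4, 4.77 and 6.03, and CD74 had 4.92, 11.1 and 2.66, in the same order.

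**Figure D3:**
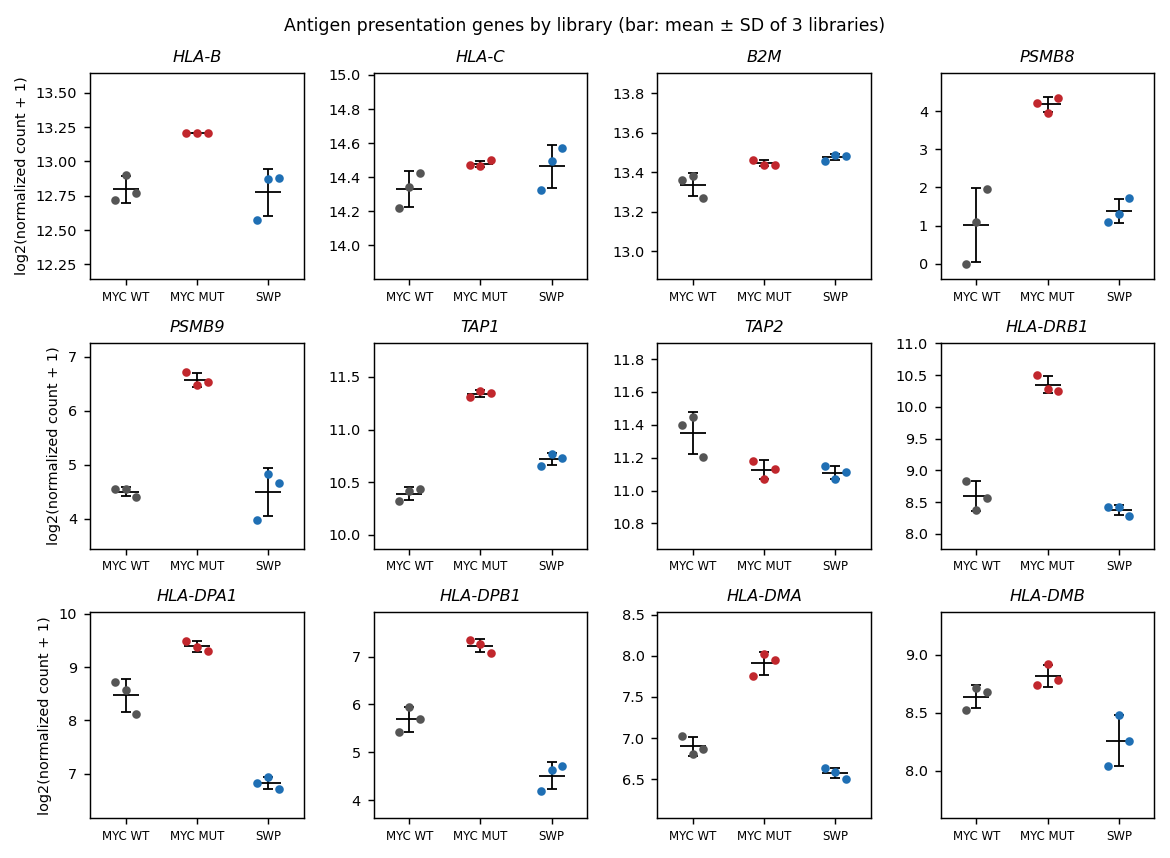
Log2(normalized count + 1) (y axis, with its own range in each panel) of 12 class I and class II antigen presentation genes by line (x axis, 3 libraries each, bars mean ± SD). PSMB8, PSMB9, TAP1 and the class II genes shown are highest in all MYC MUT libraries, while HLA-C and B2M span less than 1 log2 unit over all 9.

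Position on the chromosome was compared with the members' differences as a description. The tested genes within 5 Mb of each member that were not members themselves, 33 to 269 of them, had median log2 fold changes of -0.33 to 0.25 in MYC MUT against MYC WT, -0.23 to 0.35 in SWP against MYC WT and -0.32 to 0.26 in MYC MUT against SWP. With the median of its neighbours subtracted, a member's difference stayed beyond 0.5 in the same direction for 13 of 14 changed members in the first comparison, 9 of 9 in the second and 17 of 17 in the third. The median over the 38 tested members was then 0.13, -0.022 and 0.57, so that of SWP against MYC WT moved from -0.12 to near 0. The median of all tested genes in that comparison was -0.055, and position was not separated from this general shift. The exception was IFITM3, whose neighbours on chromosome 11 had a median of 0.25. RIGI, ISG15 and IFIT5, each lower in MYC MUT with no call, had neighbours with medians of -0.33, -0.32 and -0.22, against their own -0.36, -0.25 and -0.43. They are examples, and other members lower with no call had neighbours with positive medians. For STAT2, IFITM1 and STING1 these medians were 0.066, 0.247 and 0.191, against their own -0.246, -0.230 and -0.132.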

How the data were processed

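RNA-seq of 9 poly(A)-selected libraries (3 lines, 3 libraries each) was used here. The authors used BWA MEM, an aligner that does not split reads at introns, on hg38, removed duplicates with Picard and scaled gene counts with DESeq2 size factors. Per the labels, tools included BWA 0.7.17-r2188 and cutadapt 1.18. The counting tool, its strand setting and its treatment of shared bases are not given in the sources used here. The deposited values are a signal, gene counts divided by size factors, and 100% of them came back as whole reads within 1e-06 after rescaling.

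Identifiers were named with GENCODE release 44 (57754 of 58336 matched). Genes with a mean of at least 10 were tested on log2(value + 1) with limma 3.58.1 (R 4.3.3, trended empirical Bayes, all 9 libraries in 1 fit), and p-values were Benjamini-Hochberg adjusted over all 20884. All adjusted p-values come from limma unless edgeR (4.0.16) or DESeq2 (1.42.0) is named, and ± is the standard error, or the SD where so named. Exact permutation of 3 against 3 libraries cannot go below 0.1. The scripts were tested on simulated data. Named with values were members changed in any comparison, ISG15, IRF3, IRF9, STAT2, RIGI, IFIH1, CGAS, STING1, TAP1, B2M, HLA-B and HLA-C, MYC, and from the other lists IFNB1, IFNAR1, IFNAR2, IFNGR1, JAK1, TYK2, MAVS, NLRC5 and the 5 changed genes of largest log2 fold change with a mean of at least 50 in each edited line against MYC WT. Some genes of this rule are not reported here. Other members were named to complete their families, after their values were seen. Members and lists were chosen with earlier results of these data known.

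Same-numbered libraries deviated together between MYC WT and SWP (correlations 0.555, 0.403 and 0.102) and between MYC MUT and SWP (0.333, 0.241 and 0.232). The labels say nothing of a shared culture or day, so any pairing rests on these correlations alone. No pairing entered the main fit, and the replicate number was a block in an alternative fit only. No 2 libraries of a line agreed within sampling noise (chi-square per degree of freedom 8.32 to 55.6). Promoters were read from a RefSeq table of GRCh38.p14.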

Additional observations from a re-analysis of the deposited data

How the results depend on the processing

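The alternatives were pseudocounts of 0.1 and 10, other filters, equal totals or upper quartiles, no trend, a fit of the lines compared alone, the replicate block, edgeR, DESeq2, other call thresholds and leaving out each library. With a minimum mean of 50, which left 28 members, 8 changed in MYC MUT against MYC WT, 5 in SWP against MYC WT and 11 in MYC MUT against SWP, against 14, 9 and 17. Of all 16868 genes left, 1735 were higher and 1776 lower, 392 and 445, and 1869 and 1450, in the same order of comparisons. The members' median log2 fold change in MYC MUT against MYC WT moved from 0.13 to 0.28 with all genes and 0.21 with equal totals, and ranged from 0.13 to 0.20 without 1 library (0.18 without MYC WT replicate 1). In SWP against MYC WT it moved from -0.12 to -0.071 with equal totals, -0.065 in edgeR and -0.066 in DESeq2, and ranged from -0.15 to -0.059. In MYC MUT against SWP it moved from 0.60 to 0.44 with a pseudocount of 10, 0.50 with all genes and 0.27 with the minimum of 50, and ranged from 0.497 to 0.62. The causes were not tested. Equal totals moved the median of all genes in MYC MUT against MYC WT from -0.0034 to 0.071.

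With the replicate number as a block, 14, 11 and 19 members changed, and its only gained calls among named genes are those of BST2, TRIM22, IFI44L, IFIT2 and NLRC5 given above, with no other call changed. Of all 20884 tested genes, 2605 were then higher and 2365 lower, 591 and 873, and 2833 and 1940, in the same order of comparisons. MYC WT and MYC MUT share only a number (correlations 0.328, 0.146 and 0.049, and MYC WT replicate 3 correlated more with MYC MUT replicate 2, at 0.154). The pairing of MYC WT with SWP is weak in the same way, since MYC WT replicate 3 correlated at 0.102 with SWP replicate 3 and at 0.166 with SWP replicate 2. Of 64 changes of the 56 genes examined, 56 were kept under every alternative at the same thresholds and none reversed. At a log2 fold change beyond 1, 8 members were higher and 2 lower in MYC MUT against MYC WT, 1 and 7 in SWP against MYC WT, and 14 and 0 in MYC MUT against SWP. Of all 20884 tested genes, 1085 were higher and 563 lower, 147 and 358, and 1262 and 461, in the same order. Of 3330 gene, comparison and alternative combinations, 35 lost a call and 27 gained one. In 57, over 20 genes, an uncalled difference within its standard error of 0 changed sign (at most 0.147 before and 0.239 after).

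Low counts limit what can be said of OAS3, TRIM22, IRF7, CMPK2, CGAS, SAMD9L and PSMB8, and of STING1 in SWP. Similar or overlapping genes (IFITM, HLA, PSMB8 and TAP1) limit the assignment of reads.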

Other observations

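Other genes of the pathway lists gave values outside the comparisons. TREX1, which degrades cytosolic DNA, RTP4 and GSDMD were listed at 0 in all 9 libraries. Whether a value of 0 means that no RNA was present or comes from the counting was not tested.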
